A study of Mus musculus with 8 samples.

Results

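The genes described here encode the intraflagellar transport (IFT) trains, the BBSome and proteins of the photoreceptor cilium. They were chosen by symbol from the gene table of the retina series: every symbol of Ift or Bbs followed by a number, Wdr19, Wdr35, the Tulp genes, and Bbip1, Ttc21b, Cep290, Rpgr, Rpgrip1, Rp1 and Kif3a. The rule found 33 of the 18058 genes in the table, and all 33 were among the 17636 genes that passed the minimum mean of 10 normalized counts. Tulp2 was not analysed here. No measured value was used for the choice, but the list was drawn up with earlier results of these data known.

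Retinae were dissected from 4 adult wild-type (WT) mice and from 4 adult mice without the proteoglycans brevican (Bcan) and neurocan (Ncan) and the glycoproteins tenascin-C (Tnc) and tenascin-R (Tnr) of the neural extracellular matrix. The wild-type strain was the inbred 129S2/SvPasCrl from a supplier, which the study names as the background strain. The quadruple knockout (KO) combined knockout alleles of all 4 genes and came from crosses of single knockout lines. Genotype and mouse line therefore cannot be told apart in these samples. Adult mice of either sex were used in the study, and the retinae were pooled for RNA extraction. The number, sex and exact age of the mice behind each library are not given in the sources used here. No treatment was given, and the single knockouts are not part of these samples, so that no difference can be assigned to 1 of the 4 genes. Each genotype has 4 libraries of total RNA, named A to D, and the values are normalized counts, that is estimated read counts per gene divided by normalization factors from DESeq2.

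In bulk retina, fewer cells of a type and less RNA per cell cannot be told apart. Of the targeted genes, Ncan had 569 to 789 normalized counts among the WT libraries and 0 to 0.853 among those of the quadruple KO, whose mean was 5.82% of WT for Bcan and 42.9% for Tnr. Tnc, at 92.9% of WT, overlapped between the genotypes, and its summed count does not show which part of the transcript the reads came from. The study reported that part of the wild-type sequence of each targeted gene was lost in the quadruple KO. Its western blots of postnatal retina did not detect the proteins of these genes in the quadruple KO. An estimated 23.9 M to 52.3 M reads stood behind each library, with the lowest values in WT B (23.9 M) and WT C (27.4 M). These 2 libraries also stood apart from the other 6 on the first principal component (50.9% of the variance), and the 13 mitochondrially encoded mRNAs took 0.402% of all counts in library WT B and 0.341% in WT C, against 1.28% to 1.64% in the others. For members described with their library values, fold changes that move by over 1.5 times without WT B and WT C are therefore also given without them.

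A cilium has no ribosomes, so its proteins are made in the cell body and carried in. Kinesin-2, of which Kif3a is a motor subunit, moves IFT trains from the base to the tip, and dynein-2 returns them. The trains consist of the IFT-B complex, needed for outward transport and for building the axoneme, and the IFT-A complex, needed for return transport and, with proteins of the Tubby family, for entry of membrane receptors. The BBSome is an adaptor that rides on these trains and takes membrane proteins out of the cilium. In the retina the outer segment of rods and cones is a modified primary cilium, connected to the inner segment by a narrow connecting cilium through which all its proteins pass. Mutations of many of these genes cause retinal degeneration in humans, alone or as part of Bardet-Biedl, Joubert or skeletal syndromes.

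Ciliary genes are known targets of RFX transcription factors, which bind the X-box, and photoreceptor genes of the homeodomain factor CRX. The promoters of the members were searched for these motifs because genes of one organelle may share them. RefSeq windows from 250 bases before to 50 after the gene start (GRCm38.p6, the build of all sequence positions given here) were matched for 29 of the 33 members. Ift122, Ift80, Ift81 and Rp1 had no entry. The X-box was searched on both strands as GTTNCC and GGNAAC with 1 to 3 bases between them, and it was found in Bbs7 and Ift57, that is in 6.90% of the matched members and 0.776% of all 32851 windows. The half-site GTTGCC, which lies within the X-box of both genes, was found in 10 of 29 (34.5%) and in 12.5% of all windows. The CRX-type motif CTAATCC was found in Rpgrip1 alone among the members and in 2.05% of all windows. The windows were not matched on base composition, and a match is a stretch of letters, not a bound site. The sequences below are those of the X-box genes, of half-site genes whose values are given in every library, and of Rpgrip1, each written on the strand of its gene with the motif in capitals (GGCAAC and GGATTAG are the same motifs on the opposite strand).
Bbs7 (BBSome subunit), chr3:36613489-36613518, minus strand, X-box 121 bases before the start: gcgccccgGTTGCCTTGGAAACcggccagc
Ift57 (IFT-B subunit), chr16:49699226-49699254, plus strand, X-box 60 bases before the start: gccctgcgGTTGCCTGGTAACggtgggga
Ift140 (IFT-A core), chr17:25015965-25015994, plus strand, half-site 109 bases before the start: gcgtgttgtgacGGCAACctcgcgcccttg
Kif3a (kinesin-2 motor), chr11:53567259-53567288, plus strand, half-site 98 bases before the start: caccccgcaggcGTTGCCccagtctagcgt
Ift27 (IFT-B subunit), chr15:78174073-78174102, minus strand, half-site 9 bases before the start: gggttgatgatgGTTGCCaggagcctgttt
Ift172 (IFT-B subunit), chr5:31291097-31291126, minus strand, half-site from base 1 of the transcript: tgtcgcactcacGTTGCCtgtgcgtcagcg
Bbs1 (BBSome subunit), chr19:4906609-4906638, minus strand, half-site from base 2 of the transcript: atggctgagctgGTTGCCaaggcgacgcct
Ift88 (IFT-B core), chr14:57424080-57424109, plus strand, half-site from base 22 of the transcript: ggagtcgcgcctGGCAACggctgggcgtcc
Wdr35 (IFT-A subunit), chr12:8974029-8974050, plus strand, half-site from base 41 of the transcript: tgggcggcggtgGTTGCCaggc
Bbs5 (BBSome subunit), chr2:69647201-69647220, plus strand, half-site from base 43 of the transcript: caaagccggcgcGTTGCCtt
Rpgrip1 (connecting cilium), chr14:52110864-52110892, plus strand, CRX-type motif 28 bases before the start: ctaaaaggcctGGATTAGtgtctcctcta

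The 33 members differed in level by more than 2 orders of magnitude. To compare genes, the mean over the 8 libraries was divided by the length of the canonical transcript, which gives normalized counts per kb. Tulp1, a Tubby-family protein of photoreceptors, had the highest level (15325 per kb), followed by Rp1, a microtubule-binding protein of the outer segment axoneme (12119 per kb). Rpgrip1, which anchors Rpgr in the connecting cilium, came next at 1707 per kb, close to Bbs9 at 1693 per kb and above Bbs4 at 1409 per kb. The values of Rpgrip1 and Bbs9 overlapped across the libraries. The remaining members lay between 1050 per kb in Bbs7 and 97.9 per kb in Ift57. Of the 7 BBSome genes, all but Bbip1 ranked among the first 10, whereas the best-ranked IFT gene, Ift81, stood at 9 with 786 per kb, and Ift88 was at 32 of 33 with 144 per kb. The order depends on which transcript is taken as the canonical one.

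**Figure D1:**
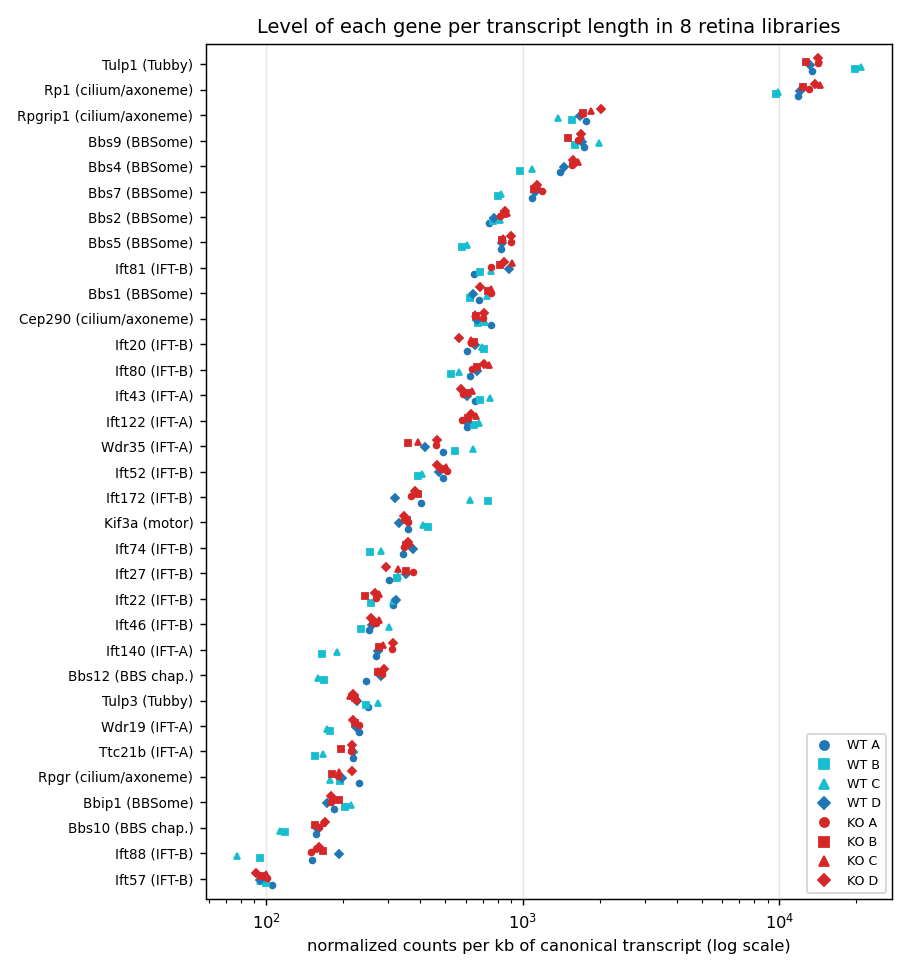
Level of each of the 33 genes in the 8 libraries, as normalized counts per kb of canonical transcript on a log axis, with 1 point per library (dark blue, WT A and WT D; light blue, WT B and WT C; red, quadruple KO). Tulp1 (15325 per kb) and Rp1 (12119 per kb) stand apart from the other 31, which lie between 1707 and 97.9 per kb on average, and the spread within a gene is small against the spread between genes.

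The question for these genes was whether the loss of the 4 matrix proteins goes along with another RNA level of the ciliary transport machinery. No member passed the threshold: 0 of 33 were called at an adjusted p under 0.05 (limma on the log2 scale, Benjamini-Hochberg over 17636 genes), against 77 of all genes tested (0.437%). The lowest adjusted p of a member was 0.301. At an unadjusted p under 0.05 there were 8 members (24.2%), against 16.6% of all genes: Rp1, Bbs4, Ift140, Bbs12, Bbs5 and Bbs7 with a higher mean in the quadruple KO, and Tulp3 and Wdr35 with a lower one. The mean was higher in the quadruple KO for 19 members and lower for 14, where 50.0% of all genes were higher. The median log2 fold change of the members was 0.13, against -0.00 over all genes, and the single values ran from -0.36 in Ift172 to 0.43 in Ift140.

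The data were precise enough to limit the size of a difference for most members. The 95% interval of the fold change lay within 1.5-fold in either direction for 25 of the 33 members (75.8%), against 53.2% of all genes. It lay within 2-fold for all 33, and for 14339 of the 17636 genes tested. The members had means of 340 normalized counts or more, whereas the genes tested went down to a mean of 10. The part of level in the width of the intervals was not tested. The widest intervals were those of Ift88, up to 0.96, and Ift172, down to -0.88 on the log2 scale. The lowest member value relative to depth, Bbs10 in WT B, rested on an estimated 183 reads, for which counting alone gives a coefficient of variation of 7.38%.

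**Figure D2:**
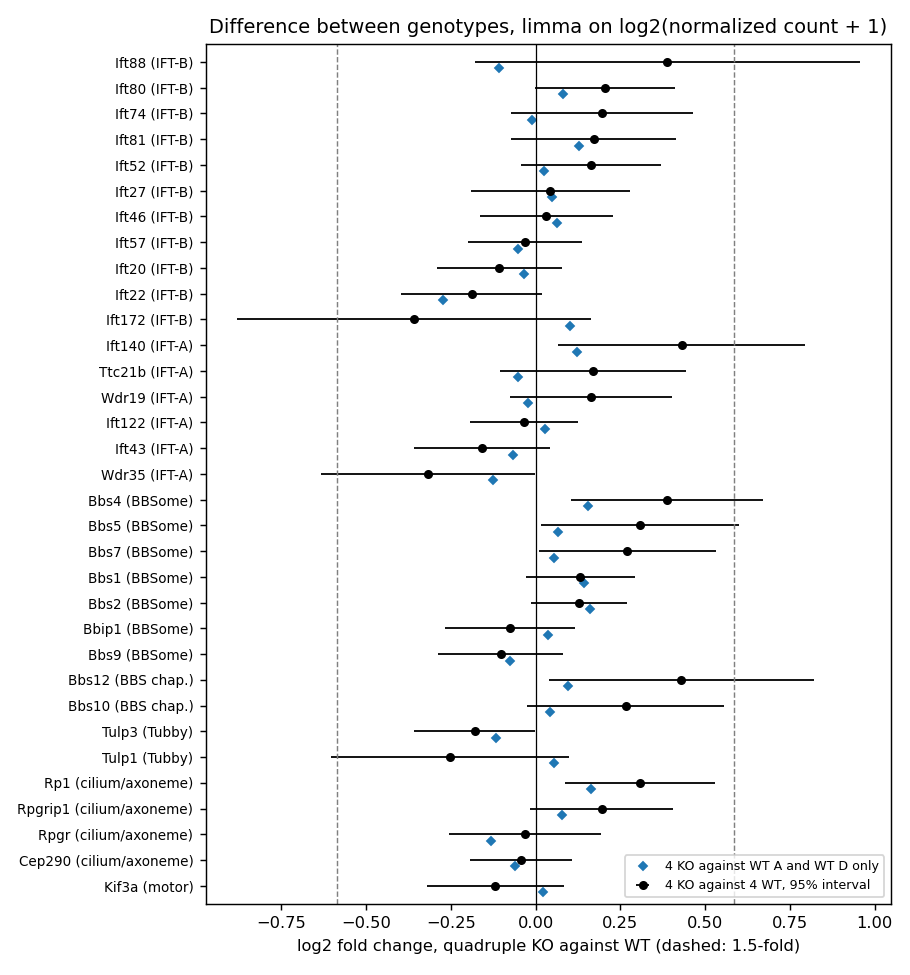
Log2 fold change between the genotypes (quadruple KO over WT) for the 33 genes by role, with the limma estimate and its 95% interval over 4 against 4 libraries in black, and the estimate against WT A and WT D alone as blue diamonds. None of the 33 was called, and all intervals lie within 2-fold. The diamonds of Ift88, Ift172, Tulp1, Bbip1, Ift122, Ift74, Ttc21b, Wdr19 and Kif3a lie on the other side of 0 from the black points.

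The larger part of the spread lay within the wild type. The SD of the log2 levels was larger among the WT than among the quadruple KO libraries for 31 of the 33 members, against 83.9% of all genes, and the median SD was 0.16 in WT and 0.07 in the quadruple KO. In 16 members both WT B and WT C were below both WT A and WT D (35.8% of all genes did so), in 8 both were above (35.1% of all genes), and 9 were mixed. In 14 of the 16 members with low values in WT B and WT C, and in 7 of the 8 with high values, all 4 quadruple KO libraries lay beyond WT B and WT C on the side of WT A and WT D. Over all genes of the same behaviour this was so for 77.2% and 80.5%, so the members were near the background. The mean of the quadruple KO was nearer to WT A and WT D in 14 of the 16 and in 8 of the 8, against 83.6% and 89.9% over all genes of the same behaviour. The GC content of the canonical transcript had a median of 44.8% in the 16 members, 51.9% in the 8 and 50.1% in the 9, and over all genes of the same behaviour it was 46.2%, 52.9% and 50.2%. Whether depth, GC content or the mitochondrial share accounts for the place of WT B and WT C was not tested.

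When WT B and WT C were left out, 0 members were called again (limma, against 0.527% of all genes), and the median log2 fold change of the members was 0.04. With a covariate for the main axis of residual variation (the first principal component after genotype is removed), 18 of 33 members were called in the same limma fit, but so were 33.2% of all genes. Of the 18, 14 were higher in the quadruple KO (16.3% of all genes) and 4 lower (16.9%). That component was itself taken from these 8 libraries.

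**Figure D3:**
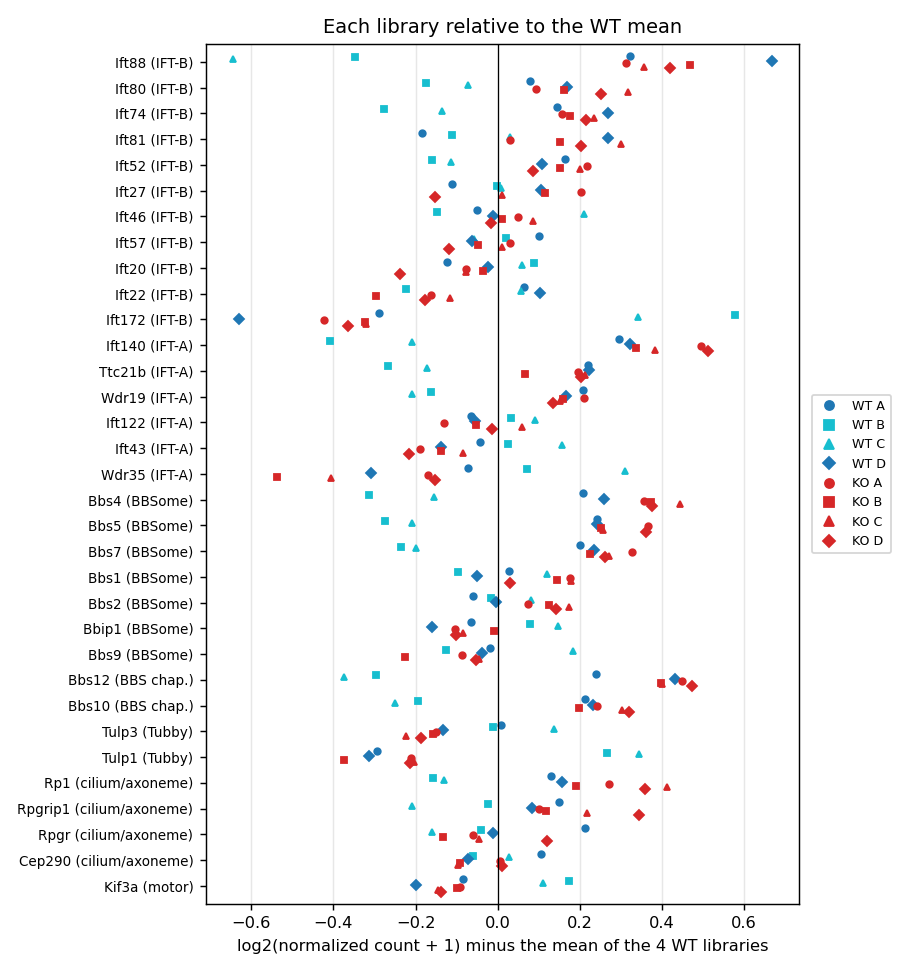
Log2 level of each of the 33 genes in each of the 8 libraries, minus the mean of the 4 WT libraries, by role and ordered by fold change within a role. WT B and WT C (light blue) both lie below or both above WT A and WT D (dark blue) in 24 of the 33 genes, and the quadruple KO libraries (red) lie close together, with a median SD of 0.07 against 0.16 in WT.

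Among the 11 IFT-B genes, none was called, none had genotypes that did not overlap, and 7 had a higher and 4 a lower mean in the quadruple KO. Ift88, a core subunit whose hypomorphic mouse allele causes short outer segments, had 808, 508, 413 and 1028 normalized counts in WT A to D and 803, 894, 827 and 864 in the quadruple KO. The quadruple KO libraries thus lay inside the range of the WT libraries, near WT A and far above WT B and WT C. As mean ± SD over the 4 libraries (n = 4 for this and the later means), it was 689 ± 282 in WT and 847 ± 40.3 in the quadruple KO (log2 fold change 0.39, SE 0.25, adjusted p = 0.378 by limma). Without WT B and WT C the log2 fold change was -0.11.

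Ift172, a peripheral subunit that takes part in the turnaround of trains at the tip, was the mirror image of Ift88 and was singled out after its values were seen. It had 2187, 3987, 3388 and 1726 normalized counts in WT A to D and 1993, 2136, 2138 and 2074 in the quadruple KO. Here WT B and WT C were the 2 highest of the 8 libraries, and the log2 fold change of -0.36 (SE 0.23, adjusted p = 0.377 by limma) became 0.10 without them. These subunits of one complex thus differed in opposite directions among the WT libraries: the mean log2 level of WT B and WT C minus that of the other pair was -0.99 in Ift88 and 0.92 in Ift172.

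Ift80, the subunit altered in Jeune thoracic dystrophy, was the IFT-B gene with the most normalized counts. It had 2571, 2156, 2315 and 2737 in WT A to D and 2597, 2724, 3033 and 2895 in the quadruple KO, with overlap between the groups (log2 fold change 0.21, SE 0.09, adjusted p = 0.302 by limma; 0.08 without WT B and WT C). Ift27, a small GTPase that links the trains to the BBSome, had the fewest, with 309, 333, 336 and 359 in WT and 384, 361, 336 and 300 in the quadruple KO. Its groups overlapped over most of their range, and the mean was 334 ± 20.5 in WT and 345 ± 35.9 in the quadruple KO. It was one of 2 members with a larger SD in the quadruple KO than in WT on the log2 scale.

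Of the 6 IFT-A genes, none was called, with 3 higher and 3 lower means in the quadruple KO. Ift140, a core subunit of the complex and a gene of retinal dystrophy and Mainzer-Saldino syndrome, had the largest positive log2 fold change of the 33. It had 1562, 958, 1102 and 1591 normalized counts in WT A to D and 1793, 1608, 1660 and 1816 in the quadruple KO. All 4 quadruple KO libraries were above all WT libraries, but KO B at 1608 was only just above WT D at 1591. The mean was 1304 ± 321 in WT and 1719 ± 101 in the quadruple KO (log2 fold change 0.43, SE 0.16, adjusted p = 0.301 by limma), and an exact two-sided permutation test over the 4 against 4 libraries gave p = 0.0286, the smallest value it allows. Without WT B and WT C the log2 fold change was 0.12. The gene overlaps Tmem204 and Telo2 on the other strand, and whether the counting used strand is not given in the sources used here.

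Ift122, the other long core subunit described here, differed little, with 2047, 2190, 2281 and 2060 in WT A to D and 1958, 2066, 2232 and 2121 in the quadruple KO (log2 fold change -0.03, 95% interval -0.19 to 0.13; 0.03 without WT B and WT C). Ift43, a small subunit, had 510, 534, 585 and 477 in WT and 460, 477, 495 and 452 in the quadruple KO, again with overlap (log2 fold change -0.16, SE 0.09, adjusted p = 0.336 by limma; -0.07 without WT B and WT C). Wdr35, altered in Sensenbrenner syndrome, had the lowest fold change of the complex and was singled out after its values were seen. It had 2197, 2429, 2864 and 1868 in WT and 2054, 1594, 1744 and 2079 in the quadruple KO (log2 fold change -0.32, SE 0.14, adjusted p = 0.301 by limma; -0.13 without WT B and WT C). KO A and KO D lay above WT D, so the groups overlapped, and the quadruple KO libraries themselves differed more than in any other member, with an SD of 0.19 on the log2 scale.

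Of the 7 BBSome genes, none was called, 5 had a higher and 2 a lower mean, and Bbs4 and Bbs5 had every quadruple KO library above every WT library. Over all members, the genotypes did not overlap for 5 of 33 (15.2%), against 9.74% of all genes. In 4 of the 5 the quadruple KO was above (Bbs4, Bbs5, Ift140 and Rp1), where 6.16% of all genes did so, and in Tulp3 it was below (3.58% of all genes). The count is small, and the list was compiled by function with the results in view.

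Bbs4, a subunit that binds the pericentriolar protein PCM1 and whose loss leads to photoreceptor degeneration in mice, showed the clearest separation of the BBSome genes. It had 3564, 2485, 2771 and 3693 normalized counts in WT A to D and 3950, 3997, 4196 and 4006 in the quadruple KO. WT A and WT D came close to the lowest quadruple KO library, while WT B and WT C lay far below. The mean was 3128 ± 591 in WT and 4037 ± 109 in the quadruple KO (log2 fold change 0.39, SE 0.13, adjusted p = 0.301 by limma; exact permutation p = 0.0286), and without WT B and WT C the log2 fold change was 0.15. Bbs4 overlaps Adpgk on the other strand.

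Bbs5, whose pleckstrin-like domains bind phosphoinositides, had 1223, 856, 896 and 1224 normalized counts in WT A to D and 1333, 1233, 1236 and 1329 in the quadruple KO. The gap between the groups, from WT D to KO B, was small against the spread of either. The log2 fold change of 0.31 (SE 0.13, adjusted p = 0.301 by limma) was 0.07 without WT B and WT C. Bbs7, a subunit with a beta-propeller and the gene with both an X-box and an unadjusted p under 0.05, had 2892, 2139, 2192 and 2960 in WT and 3158, 2942, 3039 and 3015 in the quadruple KO and was singled out after its values were seen. KO B lay below WT D, so its groups overlapped (log2 fold change 0.27, SE 0.12, adjusted p = 0.301 by limma; 0.05 without WT B and WT C).

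Bbs1, the subunit most often altered in Bardet-Biedl syndrome and the one that contacts the GTPase Arl6, had 3816, 3499, 4069 and 3617 normalized counts in WT A to D and 4227, 4139, 4240 and 3822 in the quadruple KO. KO D lay within the WT range and the other quadruple KO libraries above it. The mean was 3750 ± 249 in WT and 4107 ± 195 in the quadruple KO (log2 fold change 0.13, SE 0.07, adjusted p = 0.327 by limma), and unlike in Bbs4 the fold change was no smaller without WT B and WT C (0.14). Bbs9, a scaffold subunit with the most normalized counts of the complex, had 6047, 5613, 6954 and 5971 in WT and 5768, 5237, 5933 and 5908 in the quadruple KO (log2 fold change -0.10, SE 0.08, adjusted p = 0.456 by limma). Bbip1, the smallest subunit, had 866, 956, 1003 and 811 in WT and 843, 900, 854 and 844 in the quadruple KO, all of the latter within the WT range (log2 fold change -0.08, or 0.04 without WT B and WT C).

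Bbs10 and Bbs12 encode chaperonin-like proteins that assemble the BBSome. Bbs12 had 606, 418, 396 and 693 normalized counts in WT A to D and 702, 677, 679 and 714 in the quadruple KO. WT D lay inside the quadruple KO range, which left an overlap of 1 library (log2 fold change 0.43, SE 0.17, adjusted p = 0.301 by limma; 0.10 without WT B and WT C). The gene overlaps Cetn4 on the other strand. Bbs10 had 431, 324, 312 and 437 in WT and 440, 426, 458 and 464 in the quadruple KO, where WT A and WT D lay inside the quadruple KO range (log2 fold change 0.27, SE 0.13, adjusted p = 0.308 by limma; 0.04 without WT B and WT C).

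The 2 Tubby-family genes had lower means in the quadruple KO. Tulp1, which binds phosphoinositides and is needed for transport of rhodopsin to the outer segment, had 23834, 35137, 37108 and 23512 normalized counts in WT A to D. The quadruple KO libraries had 25238, 22561, 25384 and 25213, which is close to WT A and WT D and well below WT B and WT C. The mean was 29898 ± 7234 in WT and 24599 ± 1361 in the quadruple KO (log2 fold change -0.25, SE 0.16, adjusted p = 0.364 by limma), and without WT B and WT C the log2 fold change was 0.05.

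Tulp3, which couples IFT-A to membrane receptors, was the only member with every quadruple KO library below every WT library. It had 842, 831, 921 and 764 normalized counts in WT A to D and 754, 751, 718 and 736 in the quadruple KO. The gap between the groups was that between WT D and KO A. The mean was 840 ± 64.3 in WT and 740 ± 16.8 in the quadruple KO (log2 fold change -0.18, SE 0.08, adjusted p = 0.301 by limma; exact permutation p = 0.0286), and -0.12 without WT B and WT C. On GRCm39 the gene lies at chr6:128298104-128332821 on the minus strand. It was also the only member with a called gene within 1 Mb (4.24% of all genes had one). That gene, Nrip2, a nuclear receptor interacting protein at a distance of 0.0419 Mb, fell from 299 ± 31.1 to 65.9 ± 22.0 normalized counts (log2 fold change -2.22, SE 0.23, adjusted p = 0.0015 by limma). Of the 21 tested genes within 1 Mb of Tulp3, Nrip2 alone was called and alone had genotypes that did not overlap, and the median log2 fold change of the 21 was -0.09. Whether the values of the 2 genes are related was not tested.

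Among the 4 genes of the connecting cilium and the axoneme, none was called, and Rp1 had genotypes that did not overlap. Rp1 had 81086, 66553, 67802 and 82738 normalized counts in WT A to D and 89474, 84646, 98622 and 95048 in the quadruple KO. The lowest quadruple KO library, KO B, was close to WT D, and WT B and WT C were the lowest of the 8. The mean was 74545 ± 8549 in WT and 91947 ± 6153 in the quadruple KO, 123% of WT (log2 fold change 0.31, SE 0.10, adjusted p = 0.301 by limma; exact permutation p = 0.0286), and without WT B and WT C the log2 fold change was 0.16.

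Rp1 is a rod and cone gene, and the rod markers are given beside it. None of 12 rod markers was called (cone: Pde6c alone, higher, of 8). Of the 12, 4 had every quadruple KO library above every WT library (6.16% of all genes did so). The mean was higher in the quadruple KO for 8 of the 12 and lower for 4. All 12 had a mean of 12965 normalized counts or more. Their summed level ran from 1616784 to 1992862 in WT and from 2014724 to 2174206 in the quadruple KO, so that it did not overlap between the genotypes either. Their part in the values of Rp1, Tulp1 and the other photoreceptor genes was not tested. The 6 Müller glia markers summed to 165132 in WT B and 160136 in WT C, above the range of 106518 to 124755 in the other 6 libraries, and none of the 6 was called. Glul, with the most normalized counts of the list, Rlbp1 and Vim were high in both WT B and WT C, whereas Slc1a3 and Sox9 were low in both and Aqp4 was mixed. Of 7 ganglion cell markers none was called. Rbpms, Sncg and Nefl had every quadruple KO library below every WT library (3.58% of all genes did so). The mean was lower in the quadruple KO for 5 of the 7 and higher for 2, Pou4f1 and Thy1. The sums of the list ran from 26240 to 28900 in WT and from 21526 to 25562 in the quadruple KO. Nefl had the most normalized counts of these markers. Of 8 markers of motile cilia, 7 were tested and none was called. Their sums were 2209 to 2336 in WT and 1988 to 2231 in the quadruple KO. Dnah9, with the most normalized counts of these markers, had every quadruple KO library below every WT library (log2 fold change -0.25). The mean was lower in the quadruple KO for 4 of the 7 and higher for 3.

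Rpgrip1 had 9528, 8438, 7434 and 9090 normalized counts in WT A to D and 9202, 9321, 9978 and 10903 in the quadruple KO. WT A exceeded KO A and KO B, so the groups overlapped (log2 fold change 0.20, SE 0.09, adjusted p = 0.307 by limma; 0.08 without WT B and WT C). Rpgr, its partner and the gene of most X-linked retinitis pigmentosa, had 877, 736, 677 and 751 in WT and 726, 690, 734 and 822 in the quadruple KO (log2 fold change -0.03, 95% interval -0.25 to 0.19; -0.13 without WT B and WT C). Rpgr overlaps Srpx on its own strand, and Rpgrip1 overlaps Supt16 on the other strand.

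Cep290, which bridges membrane and microtubules in the connecting cilium, had 7135, 6360, 6763 and 6307 normalized counts in WT A to D and 6655, 6220, 6198 and 6684 in the quadruple KO. The groups overlapped, and the log2 fold change was -0.04 with a 95% interval from -0.19 to 0.11, one of the narrowest among the members. Kif3a had 1959, 2343, 2241 and 1811 in WT and 1949, 1939, 1879 and 1887 in the quadruple KO (log2 fold change -0.12, SE 0.09, adjusted p = 0.437 by limma; 0.02 without WT B and WT C). All 4 quadruple KO libraries of Kif3a lay between WT D and WT A. On the other strand, Cep290 overlaps Rlig1 and Kif3a overlaps Il4.

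**Figure D4:**
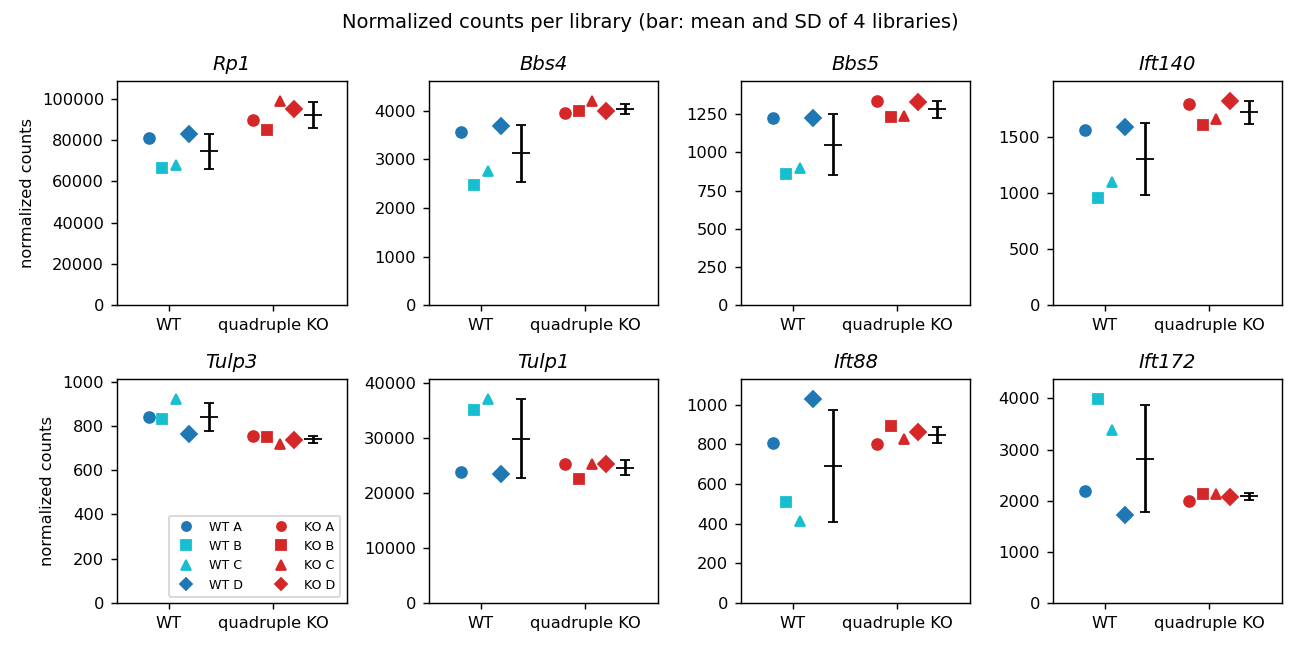
Normalized counts in each library for 8 genes, on axes that start at 0, with the mean and SD of the 4 libraries of a genotype in black. In Rp1, Bbs4, Bbs5 and Ift140 all quadruple KO libraries lie above all WT libraries and in Tulp3 below, while in Tulp1, Ift88 and Ift172 the quadruple KO lies with WT A and WT D and apart from WT B and WT C.

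The 13 members outside the naming rule, which include Ift172, Wdr35 and Bbs7, had log2 fold changes from -0.36 to 0.27, and none of them was called or had genotypes that did not overlap. Of the other 10, Bbs2, a beta-propeller subunit of the BBSome, showed a higher mean in the quadruple KO that did not depend on WT B and WT C. It had 2276, 2345, 2512 and 2367 normalized counts in WT A to D and 2498, 2589, 2676 and 2618 in the quadruple KO, with KO A just below WT C (log2 fold change 0.13, SE 0.06, adjusted p = 0.308 by limma), and 0.16 without WT B and WT C. Ift22 went the other way, with 962, 788, 957 and 988 in WT and 821, 750, 849 and 814 in the quadruple KO. Its log2 fold change was -0.19 (SE 0.09, adjusted p = 0.310 by limma), and -0.27 without WT B and WT C. The latter fit gave it an adjusted p of 0.210 by limma, the lowest of the members. Ift81 had a log2 fold change of 0.17, and 0.13 without WT B and WT C. Bbs2, Ift22 and Ift81 were picked for mention after their values were seen.

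A further 66 genes of the ciliary transport pathway, which carry other symbols, were read from the same fit, out of a list of 67 (Rfx4 was not analysed here). None was called, 18 (27.3%, against 16.6% of all genes) had an unadjusted p under 0.05 and 13 (19.7%, against 9.74%) had genotypes that did not overlap, 11 with the quadruple KO above (6.16% of all genes) and 2 below (3.58%). The mean was higher in the quadruple KO for 41 and lower for 25, and the median log2 fold change was 0.06. Of the 12 IFT and BBSome subunits and partners among them, Arl6, the GTPase that recruits the BBSome to the membrane, was above WT in every quadruple KO library (log2 fold change 0.23, SE 0.08, adjusted p = 0.301 by limma). So was Mkks, the third BBS chaperonin-like gene, with 763, 505, 500 and 769 normalized counts in WT A to D and 796, 773, 847 and 800 in the quadruple KO. Here the gap from WT D to KO B was small, and the log2 fold change of 0.37 (SE 0.16, adjusted p = 0.301 by limma) was 0.07 without WT B and WT C.

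In the same list the motor subunits that pair with Kif3a differed in direction. Kif3b had 3727, 3337, 3646 and 3741 normalized counts in WT A to D and 4026, 3945, 4344 and 4099 in the quadruple KO, with no overlap (log2 fold change 0.18, SE 0.07, adjusted p = 0.301 by limma; 0.14 without WT B and WT C). Kif3c had 4141, 5425, 5128 and 3944 in WT and 3714, 3726, 3769 and 3823 in the quadruple KO, with every quadruple KO library below WT (log2 fold change -0.30, SE 0.11, adjusted p = 0.301 by limma; -0.10 without WT B and WT C). The third component, the adaptor Kifap3, had a log2 fold change of 0.03 with a 95% interval from -0.10 to 0.16.

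Of 19 transition zone genes, Tctn1, Tctn3 and Tmem231 lay above WT in every quadruple KO library. Of 21 genes of the photoreceptor cilium and of outer segment trafficking, Arl3, Cilk1, Fam161a and Cdhr1 lay above WT in every quadruple KO library. Of these, Cdhr1, a cadherin at the base of the outer segment, had 49664, 40029, 44730 and 47761 in WT and 54303, 53629, 59333 and 57531 in the quadruple KO (log2 fold change 0.31, SE 0.08, adjusted p = 0.301 by limma; 0.21 without WT B and WT C).

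Rfx2, a transcription factor of the family that binds the X-box, had the lowest adjusted p of the 66 genes (0.186 by limma). It had 143, 131, 140 and 150 normalized counts in WT A to D and 184, 195, 193 and 221 in the quadruple KO. The 4 WT libraries lay close together, WT B and WT C included, and the quadruple KO libraries lay clear above them (log2 fold change 0.49, SE 0.11; exact permutation p = 0.0286; 0.43 without WT B and WT C). Rfx3 had WT values of 2196, 4446, 3704 and 2154 and quadruple KO values of 2238, 2099, 2158 and 2100, so that WT B and WT C alone stood apart (log2 fold change -0.47, SE 0.22, adjusted p = 0.304 by limma; -0.02 without them). Bbs7 and Ift57, the members with a full X-box, had log2 fold changes of 0.27 and -0.03.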

How the data were processed

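Total RNA (450 ng per library) was prepared with a directional kit and sequenced on a NextSeq500. Per the labels and the study's methods, the authors trimmed reads with Trim Galore 0.6.7, aligned them to GRCm39 with STAR 2.7.9a, quantified genes with Salmon 1.5.2 and normalized estimated counts with DESeq2 1.32.0 in R 4.1.1. The deposited normalized counts of the 8 libraries were used. The columns with the authors' own fold changes, p-values and adjusted p-values were not used. Whole reads could not be recovered: 44.9% to 73.2% of low values lay on whole steps within a tolerance of 0.1 of a step. No count model was therefore run, and depths are estimates. The reason for values off the steps was not tested.

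Values were analysed as log2(normalized count + 1), on which scale all log2 fold changes (quadruple KO against WT) are given, so that those of low genes are understated. Genes with a mean of at least 10 were fitted with limma 3.58.1 in R 4.3.3 (eBayes with trend, no covariate), p-values were adjusted by Benjamini-Hochberg over 17636 genes, with calls made below an adjusted p of 0.05. Single genes were also tested by exact two-sided permutation of the normalized counts (4 against 4, smallest p 0.0286). The fit was tested on simulated data in which every library had the spread of the quadruple KO libraries. The wider spread among the WT libraries was therefore not covered. The sources used here name 4 samples per genotype and pooled retinae. They do not name how many mice or which retinae made up a library, nor its batch, sex or pairing. The p-values therefore measure the spread between these samples. The letters A to D were not taken as pairs: the deviations of same-lettered libraries correlated at r = -0.01 (A), -0.11 (B), 0.10 (C) and 0.05 (D) across genes.

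Members, gene lists, roles and alternatives were chosen with earlier results of these data known. Values of some genes of the further ciliary list are not reported here. Values in every library are given for members whose genotypes do not overlap, the highest and lowest member of each role by normalized count, and Tulp1, Rp1, Rpgr, Rpgrip1, Cep290, Kif3a, Ift88, Bbs1 and Bbs4, which made 20 members. Gene positions and canonical transcripts came from GENCODE vM39 (GRCm39), and promoter sequences from RefSeq (GRCm38.p6). Marker lists not named in the report (bipolar and amacrine cells, pigment epithelium, lens, endothelium) held no called gene. Python 3.11.15, numpy 2.4.6, pandas 2.3.3, scipy 1.17.1 and matplotlib 3.10.9 were used for summaries and plots. The alternatives were 2 other normalizations, 2 filters, 2 pseudocounts, 2 variance priors, array weights, a replicate block, WT A and WT D alone, the first residual principal component as a covariate, and leaving out each library.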

Additional observations from a re-analysis of the deposited data

Results flagged for a closer look

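Tulp1 in KO B stood apart from the other quadruple KO libraries. Its value of 22561 normalized counts lay below the 25213 to 25384 of KO A, KO C and KO D, and the gap took 0.939 of the range of the group, above Dixon's 95% critical value for 4 samples. It was 1 of 40 groups examined (20 genes in 2 genotypes), and chance alone gives about 5 in 100.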

How the results depend on the processing

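No member was called in any fit other than that with the first residual principal component as a covariate, where 18 members, 30 of the 66 further ciliary genes and 5857 of all genes were called. The lowest adjusted p of a member with 1 library left out was 0.0769 (limma, Bbs4 without WT D). Over all genes, 143 were called with array weights, 51 with the replicate block, where no member was called, and 56 to 89 with each library left out. The median log2 fold change of the members was 0.0353 with array weights and 0.0372 without WT B and WT C, and 0.0801 to 0.128 with each library left out. Among the 33 members the sign turned with array weights for Bbip1 (0.000900), Ift122 (0.0192), Ttc21b (-0.0199) and Wdr19 (-0.00335). Without WT B and WT C it turned for Bbip1 (0.0372), Ift122 (0.0269), Ift88 (-0.107), Ift172 (0.101), Ift74 (-0.00990), Ttc21b (-0.0504), Wdr19 (-0.0225), Tulp1 (0.0537) and Kif3a (0.0225). Leaving out single libraries turned Ift27 (-0.00898 to 0.109; -0.00898 without KO A), Ift46 (-0.0172 to 0.102; -0.0172 without WT B), Ift57 (-0.0525 to 0.00154; 0.00154 without WT A) and Rpgr (-0.0833 to 0.0408; 0.0408 without WT A and 0.00422 without KO B). None of these was called in the fit of the report or in the alternative named beside it, and apart from the fewer libraries in a fit the cause was not tested. The edgeR and DESeq2 alternatives were not run because whole reads were not recovered. Beside a counting coefficient of variation of 7.38% at the weakest member value, the median WT SD was 0.16 on the log2 scale.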
